A study of Mus musculus with 12 samples.

Results

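The 76 genes described here are those of the RNA-seq table whose symbol begins with Mrpl or Mrps followed by a digit, the mitochondrial ribosomal protein genes. They were taken by name alone, from 24918 gene entries, and comprise 47 genes of the large subunit (Mrpl) and 29 of the small subunit (Mrps). All 76 passed the filter on low counts and were among the 14994 genes tested. The samples were mouse 2-cell embryos obtained by mating superovulated NSA(CF-1) females to B6SJLF1/J males and recovered at the pronuclear stage. The treated group was cultured in KSOM medium with 50 µM IWR1-endo, an inhibitor of the poly-ADP-ribosyltransferase tankyrase, and the control group with its solvent DMSO, both at reduced oxygen. Embryos of both groups were collected 46 h after injection of human chorionic gonadotropin. Each group had 4 RNA-seq libraries, each from its own pool of 10 embryos, and 2 ATAC-seq libraries from 100 embryos each, in which a transposase marks open chromatin. Libraries are called by the numbers in the table, 1 to 4 for DMSO and 5 to 8 for IWR1-endo (IWR1).

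Mitochondria translate the few proteins of their own genome on a ribosome of their own. Its ribosomal RNAs come from mitochondrial DNA, whereas all of its proteins are encoded in the nucleus, made in the cytosol and imported. The small subunit reads the messenger RNA, and the large subunit joins amino acids and releases the chain toward the inner membrane. Some of the proteins descend from bacterial ribosomal proteins and others are found only in mitochondria. The embryo inherits its mitochondria from the oocyte, and the 2-cell stage is when the mouse embryo's own genome is first strongly transcribed while maternal RNA is being removed. Factors known from other cells to act on promoters of nuclear genes for mitochondrial proteins include NRF1, YY1 and the ETS-family protein GABP.

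Promoters of 6 genes are shown first, with and without letters known for these factors near the start site. Mrpl48 and Mrps23, which also rose, are not shown, and Mrpl48 has 4 listed windows. RefSeq windows of the GRCm38.p6 assembly, from 250 bases before to 50 bases after an annotated start, were matched for 67 of the 76 genes. Capitals mark the ETS letters CCGGAAG, the NRF1 letters TGCGCA or GCATGCG, and the YY1 letters AAGATGG, each searched on both strands. The first pair below are the largest falls of each subunit.
Mrpl52 (chr14:54426659-54426958, + strand): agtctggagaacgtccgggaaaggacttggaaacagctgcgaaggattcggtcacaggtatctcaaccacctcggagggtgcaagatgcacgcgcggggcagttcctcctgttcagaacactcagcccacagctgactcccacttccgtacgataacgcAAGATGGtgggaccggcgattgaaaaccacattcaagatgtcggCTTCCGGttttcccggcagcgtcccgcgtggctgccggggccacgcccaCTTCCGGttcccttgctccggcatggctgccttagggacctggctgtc
Mrps12 (chr7:28741772-28742071, - strand): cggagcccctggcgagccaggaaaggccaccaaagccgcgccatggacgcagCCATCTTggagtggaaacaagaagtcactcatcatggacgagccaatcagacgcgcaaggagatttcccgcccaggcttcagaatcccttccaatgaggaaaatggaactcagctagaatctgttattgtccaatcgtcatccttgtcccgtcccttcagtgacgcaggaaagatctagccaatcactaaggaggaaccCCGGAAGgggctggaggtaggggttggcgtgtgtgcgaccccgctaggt
The next 3 belong to genes that rose.
Mrps25 (chr6:92183974-92184273, - strand): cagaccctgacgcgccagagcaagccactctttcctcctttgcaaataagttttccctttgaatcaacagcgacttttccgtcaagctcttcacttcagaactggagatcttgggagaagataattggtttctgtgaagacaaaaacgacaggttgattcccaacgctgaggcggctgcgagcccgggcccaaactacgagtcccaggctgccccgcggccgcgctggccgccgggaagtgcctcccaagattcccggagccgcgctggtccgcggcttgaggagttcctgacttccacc
Mrpl30 (chr1:37890227-37890526, + strand): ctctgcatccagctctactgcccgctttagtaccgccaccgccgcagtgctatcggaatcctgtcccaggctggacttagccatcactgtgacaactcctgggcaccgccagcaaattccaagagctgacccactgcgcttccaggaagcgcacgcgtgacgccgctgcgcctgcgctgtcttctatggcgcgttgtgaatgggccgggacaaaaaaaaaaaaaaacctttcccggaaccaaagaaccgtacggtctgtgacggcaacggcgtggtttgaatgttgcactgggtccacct
Mrps27 (chr13:99344536-99344835, + strand): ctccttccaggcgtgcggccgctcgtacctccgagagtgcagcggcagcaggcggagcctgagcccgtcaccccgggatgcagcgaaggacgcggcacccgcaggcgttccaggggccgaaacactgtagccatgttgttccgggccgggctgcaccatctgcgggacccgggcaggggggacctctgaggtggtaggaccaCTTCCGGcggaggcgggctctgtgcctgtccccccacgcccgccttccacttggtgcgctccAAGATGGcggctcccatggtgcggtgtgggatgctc
The last gene did not pass the test, and its window lies inside an ATAC-seq region that was higher in IWR1.
Mrpl9 (chr3:94443086-94443385, + strand): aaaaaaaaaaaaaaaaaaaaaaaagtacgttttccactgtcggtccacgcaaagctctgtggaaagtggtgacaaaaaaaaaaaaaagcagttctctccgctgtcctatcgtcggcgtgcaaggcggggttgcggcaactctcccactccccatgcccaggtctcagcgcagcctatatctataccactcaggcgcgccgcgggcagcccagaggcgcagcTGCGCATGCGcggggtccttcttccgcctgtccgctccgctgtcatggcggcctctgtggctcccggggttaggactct

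In the Mrpl52 window the ETS letters occurred at -47 and 2 from the start site, counted to the first base of the match, and the YY1 letters at -91. The Mrps12 window held the ETS letters at 1 and the YY1 letters at -198, and the CCAAT letters of the factor NFY in 4 places, which are not capitalised. Mrps27 carried the ETS letters at -48 and the YY1 letters at 14. In Mrpl9 the overlapping NRF1 letters began at -29. The windows of Mrps25 and Mrpl30 held none of the 4 capitalised strings. The window of Mrps23, not shown, held the NRF1 letters TGCGCA at -210 and the ETS letters at 15.

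ETS letters were present in 23 of the 67 windows (34.3%), against 16.3% of 11913 windows of genes tested. The NRF1 letters TGCGCA were in 19 (28.4%, against 13.6%), and GCATGCG, which can overlap TGCGCA, in 8 (11.9%, against 6.21%). YY1 letters were in 13 (19.4%, against 7.09%). Shares for the E-box CACGTG (7.46% against 9.85%), the NFY letters CCAAT (40.3% against 39.3%), the SP letters GGGCGG (49.3% against 58.9%) and TATAAA (5.97% against 8.56%) lay closer to the background or below it. A start of C followed by 4 pyrimidines, like the terminal tract of cytosolic ribosomal protein messages, was found in 0 of 67 windows, in 2.40% of all windows and in 12 of 60 windows (20.0%) of cytosolic ribosomal protein genes. The match was made at the annotated start only, so 0 of 67 does not show that the tract is absent. The ETS letters were at similar shares in genes that fell, 14 of 41 with a window, and in those not called, 7 of 21, and were in 2 of the 5 genes that rose. YY1 letters were in 10 of the 41, 2 of the 21 and 1 of the 5. These matches describe sequence and are not evidence of binding.

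Depth was 16606155 to 49672143 counts per library in DMSO and 17963977 to 32931800 in IWR1. Marker counts stand against 23.3% of all genes tested that were higher and 25.4% that were lower in IWR1. Of the 10 listed markers of the 2-cell embryo 9 could be tested and 7 were higher in IWR1, and their summed level was 468 to 581 FPKM in DMSO and 1445 to 2335 FPKM in IWR1, with Gm6763 at 0 in every library. FPKM is a level scaled to gene length and to the library's total count. Of 10 oocyte and maternal markers 5 were higher and 1 lower in IWR1, with sums of 2116 to 4172 FPKM and 12537 to 19706 FPKM. Markers of sperm (3 of 7 higher, 4 tested, 0.677 to 1.91 against 12.2 to 26.3 FPKM, Spata18 at 0) and of blastocyst lineages (2 of 9 higher, 8 tested, 9.24 to 19.4 against 37.9 to 52.7 FPKM) were also higher in sum. For cumulus and granulosa cells 1 marker was higher and 1 lower of 10 listed and 4 tested (19.4 to 36.3 against 17.1 to 24.96 FPKM, Amh and Lum at 0), and for blood 1 of 6 was higher and only 1 was tested (2.60 to 3.73 against 7.04 to 11.6 FPKM, Hba-a1, Hbb-bs and Ptprc at 0). These marker levels move with the treatment, and their part in the results below was not tested. In bulk embryos, fewer cells holding a transcript and less of it per cell cannot be told apart, and all values are relative abundances, not amounts per embryo.

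Most mitochondrial ribosomal protein genes were lower in embryos cultured with IWR1. At an adjusted p of 0.05 (edgeR, quasi-likelihood, Benjamini-Hochberg), 47 of the 76 genes fell, against 25.4% of all genes tested, and 5 rose, against 23.3%. The remaining 24 did not pass the test. The number of rises was 10 with DESeq2 (4114 of all 14994 genes), 10 with its size factors (3677) and 11 with library totals alone (4052). In the shallow libraries alone (DMSO 1 and 2, IWR1 5 and 7) 30 genes fell, against 2088 of all 15067 genes tested there. The 4 IWR1 libraries lay entirely below the 4 DMSO libraries in FPKM for 45 genes, against 22.0% of all genes, and entirely above them for 10, against 28.3%. The median log2 fold change of IWR1 over DMSO was -0.999, and 59 of the 76 estimates were negative. Over all genes tested the median was 0.17 with the TMM scaling used here, 0.34 with library totals alone and 0.04 with libraries centred on their medians.

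The large subunit held the larger share of falls. Of its 47 genes 33 fell (70.2%), 2 rose and 12 were not called, with a median log2 fold change of -1.26 and a middle 50% of -1.87 to -0.38. Of the 29 small subunit genes 14 fell (48.3%), 3 rose and 12 were not called, with a median of -0.76 and a middle 50% of -1.68 to 0.21. Libraries of the groups did not overlap for 32 large subunit genes below and 5 above DMSO, and for 13 small subunit genes below and 5 above. Over all genes tested 25.4% fell and 23.3% rose, and 22.0% lay entirely below and 28.3% entirely above. In the shallow libraries alone the subunits were closer, with medians of -0.94 and -0.82. There 20 of 47 large and 10 of 29 small subunit genes were lower, against 2088 of all 15067 genes. These counts and medians describe the subunits, and their difference was not tested.

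**Figure D1:**
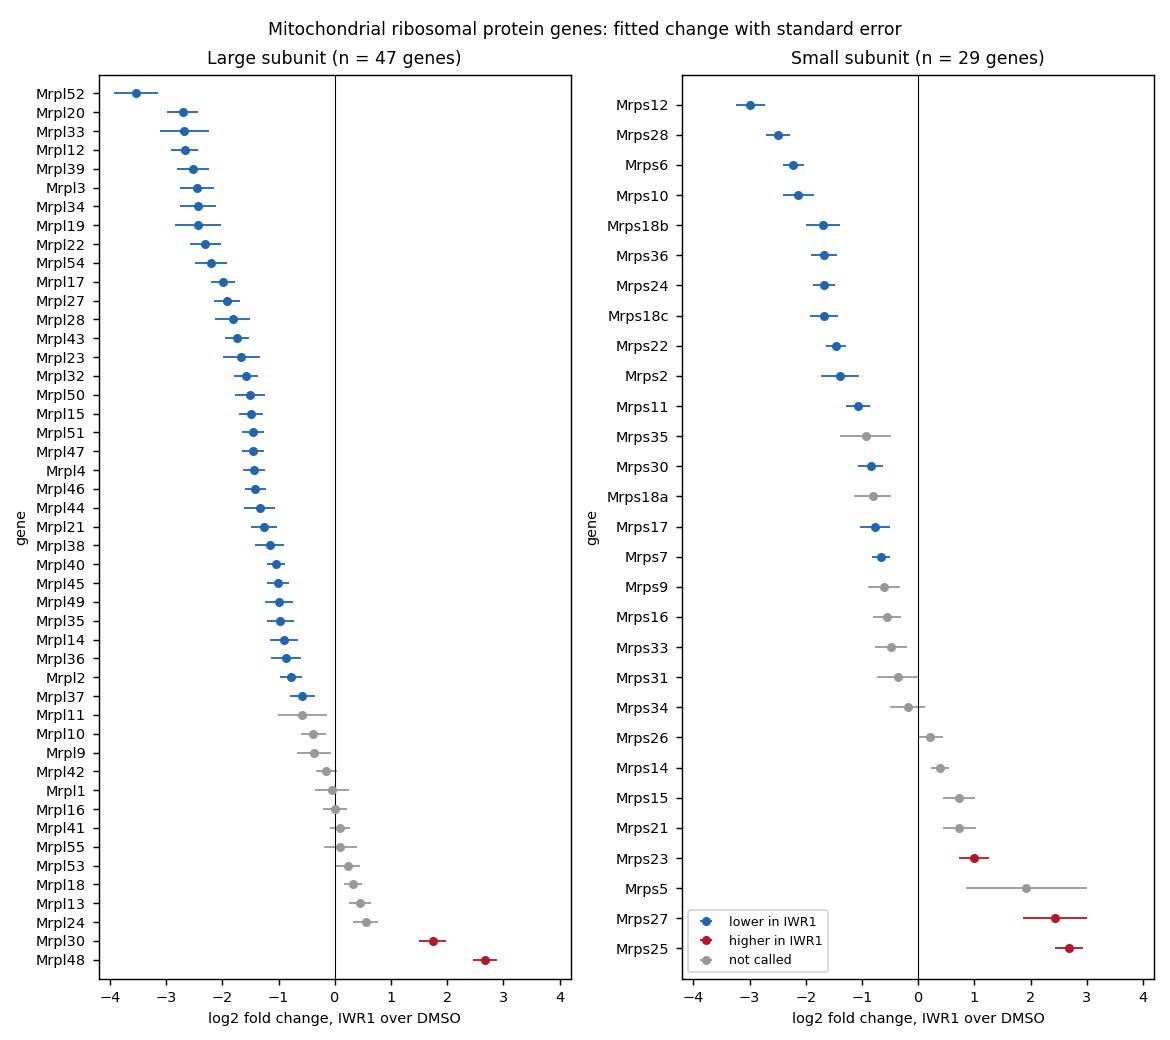
Fitted log2 fold change of IWR1 over DMSO with its standard error for each of the 47 large and 29 small subunit genes, coloured by the edgeR call. Estimates run from -3.54 for Mrpl52 to 2.68 for Mrps25, with 47 genes called lower and 5 called higher.

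The summed level of the 76 genes was lower in every IWR1 library. They took 0.664, 0.614, 0.631 and 0.716% of all counts in DMSO libraries 1 to 4 and 0.462, 0.485, 0.523 and 0.460% in IWR1 libraries 5 to 8. The groups did not overlap, and the mean went from 0.656 ± 0.0447% to 0.482 ± 0.0292% (SD, n = 4 each), a ratio of 0.735. Large subunit genes summed to 4375 ± 392 FPKM in DMSO and 2973 ± 248 FPKM in IWR1, and small subunit genes to 1836 ± 101 FPKM and 1202 ± 63.0 FPKM. The ratio of the large to the small subunit sum was 2.38 ± 0.130 in DMSO and 2.47 ± 0.119 in IWR1, with overlapping libraries.

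That similar ratio of sums changed when 1 gene was left out. Mrpl48 made up 1.65 ± 0.474% of the summed FPKM of the 76 genes in DMSO and 17.3 ± 3.00% in IWR1, where it was the most abundant of them in all 4 libraries. Without Mrpl48, an alternative chosen after seeing the data, the ratio of large to small subunit sums was 2.33 ± 0.142 in DMSO and 1.87 ± 0.175 in IWR1, and the groups did not overlap. The small subunit genes that rose were kept in that ratio. With all 76 genes, the ratio of median FPKM, large over small subunit, was 0.990 ± 0.118 in DMSO and 0.996 ± 0.155 in IWR1. Libraries of the groups overlapped in it. The 5 most abundant genes of a library held 29.3 ± 2.48% of the summed FPKM in DMSO and 37.3 ± 1.95% in IWR1.

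**Figure D2:**
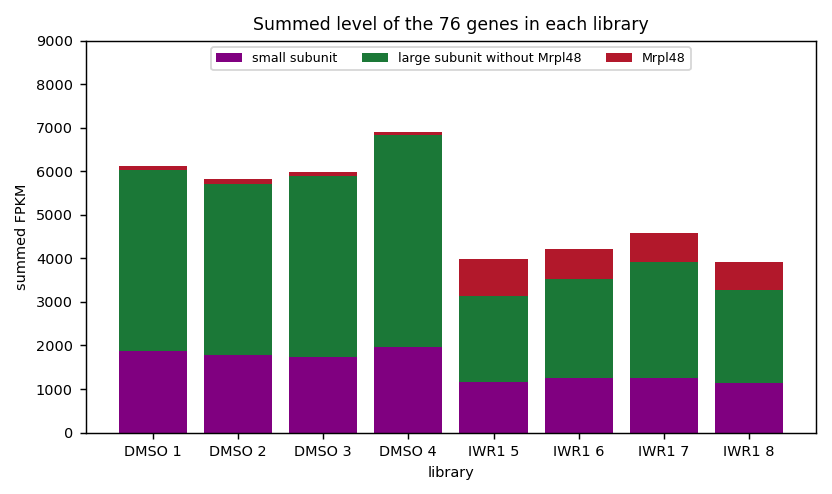
Summed FPKM of the 76 genes in each of the 8 libraries, stacked as small subunit, large subunit without Mrpl48, and Mrpl48. Small subunit sums average 1836 FPKM in DMSO and 1202 FPKM in IWR1, and the Mrpl48 segment is taller in each IWR1 library than in any DMSO library.

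The largest fall of the large subunit was that of Mrpl52, a protein found only in mitochondrial ribosomes. Mrpl52 was at 35.4, 18.2, 31.2 and 25.7 FPKM in DMSO libraries 1 to 4 and at 3.11, 2.58, 2.86 and 2.30 FPKM in IWR1 libraries 5 to 8. Every IWR1 library was far below the lowest DMSO library, and the log2 fold change was -3.54 (SE 0.40, edgeR adjusted p = 3.13e-05). It is a gene of modest counts, 142 to 636 per library in DMSO and 23 to 35 in IWR1.

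Mrpl20, the counterpart of a bacterial protein that binds the ribosomal RNA early in assembly, was among the most abundant genes of the group. Its levels were 304, 365, 358 and 563 FPKM in DMSO and 41.2, 75.7, 89.2 and 74.6 FPKM in IWR1. The groups were well apart, with DMSO library 4 highest and IWR1 library 5 lowest, and the log2 fold change was -2.70 (SE 0.27, edgeR adjusted p = 1.90e-05). Mrpl12 forms the stalk that recruits translation factors, and outside the ribosome it binds the mitochondrial RNA polymerase. Mrpl12 levels were 194, 259, 222 and 289 FPKM in DMSO and 30.6, 52.4, 56.9 and 33.4 FPKM in IWR1, again without overlap (log2 fold change -2.67, SE 0.24, edgeR adjusted p = 1.21e-05).

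Mrpl33, a small protein conserved from bacteria, showed more spread. Its libraries were at 56.5, 48.7, 33.2 and 34.1 FPKM in DMSO and at 8.84, 9.06, 2.00 and 9.94 FPKM in IWR1. IWR1 library 7 was far below the other three, yet all 4 IWR1 libraries stayed below DMSO, and the log2 fold change was -2.68 (SE 0.44, edgeR adjusted p = 0.000336). Mrpl39, found only in mitochondrial ribosomes, was at 16.3, 9.88, 9.76 and 14.8 FPKM in DMSO and 2.14, 3.20, 2.31 and 2.31 FPKM in IWR1. Its groups were also separate (log2 fold change -2.52, SE 0.29, edgeR adjusted p = 3.32e-05).

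Mrpl22 lines the tunnel through which the new chain leaves, and had the highest mean of all 76 genes in DMSO. It went from 416 ± 101 FPKM to 97.4 ± 32.6 FPKM (SD, n = 4 each, log2 fold change -2.30, SE 0.28, edgeR adjusted p = 4.53e-05). Mrpl40, a protein of the central protuberance, fell less, at 421, 363, 399 and 399 FPKM in DMSO and 186, 212, 257 and 217 FPKM in IWR1. DMSO libraries were close together and all above IWR1 (log2 fold change -1.05, SE 0.17, edgeR adjusted p = 0.000272). Mrpl44, which has a ribonuclease III fold, and Mrpl45, which lies at the tunnel exit beside the inner membrane, fell by 1.33 (SE 0.27, edgeR adjusted p = 0.00159) and 1.01 (SE 0.19, edgeR adjusted p = 0.000884) on the log2 scale.

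In the small subunit Mrps12 fell most. It is the counterpart of the bacterial protein S12 at the decoding centre, where streptomycin resistance mutations are found in bacteria. Mrps12 was at 67.0, 56.9, 66.2 and 68.6 FPKM in DMSO and 6.51, 10.2, 12.3 and 8.37 FPKM in IWR1. The DMSO libraries were tightly grouped and all far above IWR1, with a log2 fold change of -2.98 (SE 0.25, edgeR adjusted p = 1.07e-05).

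Mrps28, Mrps6 and Mrps10 followed. Mrps28, related to bacterial S1, was at 149, 112, 124 and 180 FPKM in DMSO and 24.1, 30.9, 29.6 and 29.6 FPKM in IWR1 (log2 fold change -2.49, SE 0.21, edgeR adjusted p = 1.11e-05). Mrps6, the most abundant small subunit gene in DMSO, was at 269, 218, 242 and 236 FPKM there and at 46.7, 68.6, 67.8 and 52.0 FPKM in IWR1 (log2 fold change -2.22, SE 0.19, edgeR adjusted p = 1.07e-05). In both, each IWR1 library lay below every DMSO library. The Mrps6 gene overlaps Slc5a3, which was at 2.68 ± 0.413 FPKM in DMSO and 2.26 ± 0.711 FPKM in IWR1. Mrps10, whose bacterial counterpart S10 lies in the head of the subunit, went from 40.9 ± 9.78 FPKM to 10.7 ± 2.41 FPKM (log2 fold change -2.14, SE 0.28, edgeR adjusted p = 6.89e-05).

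Mrps18b, 1 of 3 mouse paralogues of the bacterial protein S18, went from 76.4 ± 16.0 to 27.3 ± 10.4 FPKM (log2 fold change -1.69, SE 0.30, edgeR adjusted p = 0.000641). Mrps24, at the channel where messenger RNA enters, went from 161 ± 15.1 to 57.4 ± 14.0 FPKM (log2 fold change -1.68, SE 0.20, edgeR adjusted p = 4.49e-05). IWR1 library 5 was the lowest library of its group for 31 of the 76 genes, among them Mrps12, Mrps6 and Mrpl20, and the highest for 24. DMSO library 4 was the highest of its group for 28 and the lowest for 17.

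**Figure D3:**
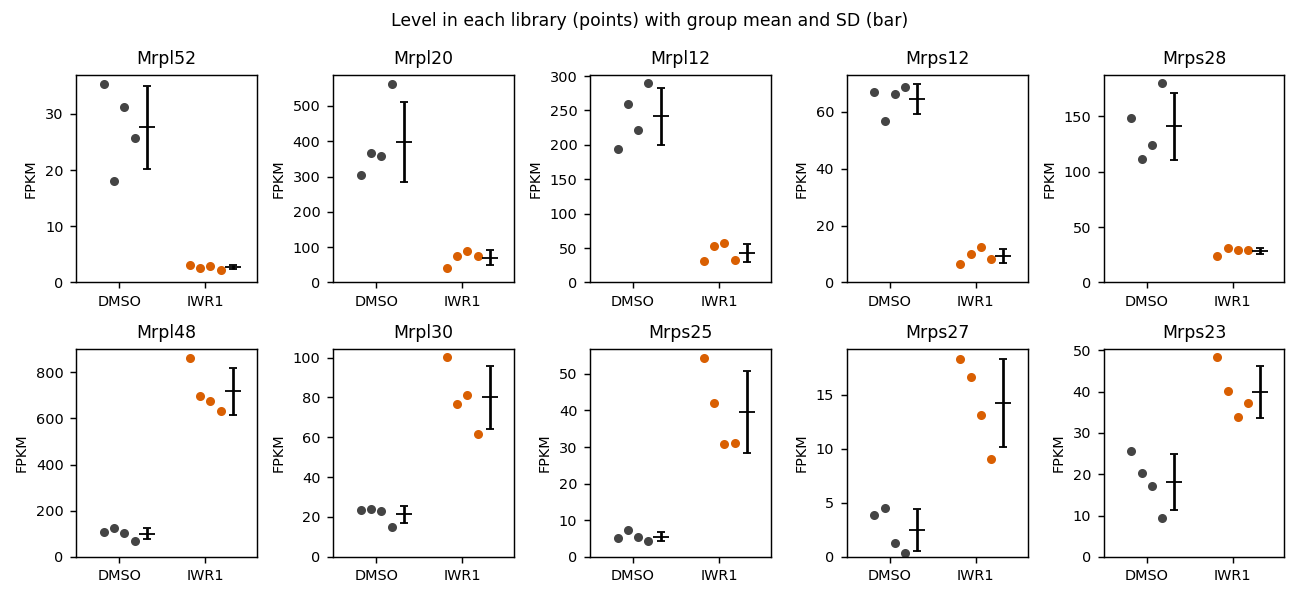
FPKM in each library (points, library order from left to right) with the group mean and SD for 5 genes that fell (top) and the 5 that rose (bottom). In all 10 panels the DMSO and IWR1 points do not overlap, as in Mrpl48 with at most 126 FPKM in DMSO and at least 632 FPKM in IWR1.

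The 5 genes that rose were Mrpl48, Mrpl30, Mrps25, Mrps27 and Mrps23. Mrpl48, a protein of the central protuberance found only in mitochondrial ribosomes, was at 105.3, 126, 102 and 69.7 FPKM in DMSO and 863, 698, 677 and 632 FPKM in IWR1. All IWR1 libraries were several times above every DMSO library, and the log2 fold change was 2.67 (SE 0.21, edgeR adjusted p = 8.21e-06). Mrpl30, the counterpart of bacterial L30, was at 23.3, 24.01, 22.8 and 15.1 FPKM in DMSO and 100, 76.9, 81.4 and 61.8 FPKM in IWR1. It also showed no overlap (log2 fold change 1.74, SE 0.24, edgeR adjusted p = 0.000107).

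The small subunit genes that rose all encode proteins found only in mitochondrial ribosomes. Mrps25 was at 5.18, 7.28, 5.35 and 4.24 FPKM in DMSO and 54.3, 42.1, 30.7 and 31.1 FPKM in IWR1 (log2 fold change 2.68, SE 0.25, edgeR adjusted p = 1.32e-05). Mrps27, an RNA-binding protein with pentatricopeptide repeats, was at 3.85, 4.47, 1.26 and 0.392 FPKM in DMSO and 18.3, 16.6, 13.1 and 9.06 FPKM in IWR1 (log2 fold change 2.43, SE 0.57, edgeR adjusted p = 0.00388). The groups stayed apart for both genes, although DMSO libraries of Mrps27 differed widely among themselves. Mrps23 was at 25.6, 20.2, 17.2 and 9.49 FPKM in DMSO and 48.4, 40.2, 33.9 and 37.3 FPKM in IWR1 (log2 fold change 0.99, SE 0.27, edgeR adjusted p = 0.00908). Its groups did not overlap in FPKM, but with only the shallow libraries its adjusted p was 0.107, and with only the deep ones 0.0531. For all 5 genes IWR1 library 5 was the highest of its group and DMSO library 4 the lowest.

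All of these genes but Mrpl30 share bases with another gene model, so part of their counts is uncertain, since the library kit does not mark strand. Mrps25 overlaps Nr2c2 by 3547 bases, and Nr2c2 fell by 1.93 on the log2 scale (SE 0.32, edgeR adjusted p = 0.000376). Mrpl48 overlaps Rab6a by 727 bases, and Rab6a fell by 0.56 (SE 0.19, edgeR adjusted p = 0.0257). Mrps27 overlaps 6430562O15Rik by 1991 bases and Mrps23 overlaps Cuedc1 by 35, both without a tested value for the partner. Mrpl30 overlaps no other counted gene. Among the 76 genes 20 overlap another gene, of which 12 fell (60.0%) and 4 rose (20.0%). Of the 56 that do not, 35 fell (62.5%) and 1 rose (1.79%). Over all genes tested 25.4% fell and 23.3% rose.

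The 24 genes that were not called included some close to the threshold and some with little difference. Those named in this paragraph were picked after their values were seen. Mrps15 (0.73, SE 0.29, edgeR adjusted p = 0.0548), Mrps21 (0.73, SE 0.29, edgeR adjusted p = 0.0554), Mrpl24 (0.55), Mrpl13 (0.45) and Mrps14 (0.39) had positive log2 fold changes, and with DESeq2 or its size factors these 5 were called higher, which made 10 genes in place of 5. Library totals alone gave 11, with Mrpl18 added. Genes with estimates near 0 included Mrpl42, at 173 ± 21.9 FPKM in DMSO and 178 ± 30.0 FPKM in IWR1. Others were Mrpl41, at 38.7 ± 2.18 and 46.8 ± 7.89 FPKM, and Mrpl16, at 23.9 ± 5.51 and 27.1 ± 4.86 FPKM. The lowest gene in DMSO was Mrps5, at 0.506 ± 0.540 FPKM, with a log2 fold change of 1.92 and a wide error (SE 1.08, edgeR adjusted p = 0.161).

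Despite these shifts, the order of the genes by level was partly kept. Across the 76 genes, which are not independent replicates, mean FPKM in DMSO and in IWR1 had a Spearman rho of 0.78. Mean FPKM over all libraries and log2 fold change had a rho of -0.04, and gene length and log2 fold change 0.20. Genes measured in the same libraries share their scaling, and these values describe the libraries only.

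**Figure D4:**
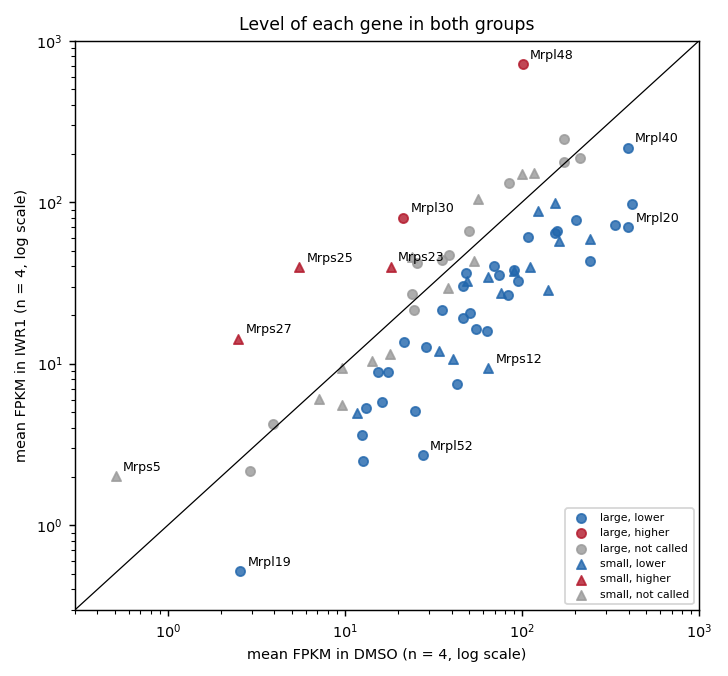
Mean FPKM of each gene in IWR1 against DMSO (n = 4 each, both axes logarithmic), with circles for large and triangles for small subunit genes and colours for the edgeR call. Most points lie below the diagonal of equal level, and Mrpl48, at 101 FPKM in DMSO and 717 FPKM in IWR1, lies highest above the rest.

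The genes are expressed above most others, and highly expressed genes fell more often across the whole table. When the genes tested were split by mean FPKM into 5 bins of equal size, 51 of the 76 were in the highest bin, from 25.4 FPKM, and 20 in the next, from 7.31 FPKM. In the highest bin 33 of the 51 fell (64.7%), against 49.9% of all genes there, and the shares of the subunits were close, with 21 of 32 large (65.6%) and 12 of 19 small (63.2%). In the next bin 13 of 20 fell (65.0%), against 37.4% of all genes, with 11 of 12 large and 2 of 8 small subunit genes. The subunits stood apart in the bin of moderate expression, where the small subunit has only 8 genes, and were close in the bin of abundant genes. The 76 genes are short, with a median of 1053 bases against 2709 for all genes tested. Falls came in 19 of 32 genes up to 1000 bases (59.4%, against 27.3% of all genes of that length). From there to 2000 bases they came in 21 of 33 (63.6%, against 26.9%), and in longer genes in 7 of 11 (63.6%, against 24.5%). Within the highest bin of FPKM, 14 of 25 genes up to 1000 bases fell (56.0%, against 51.2%). Those up to 2000 bases fell there in 17 of 23 cases (73.9%, against 50.9%), and longer ones in 2 of 3 (66.7%, against 48.4%).

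**Figure D5:**
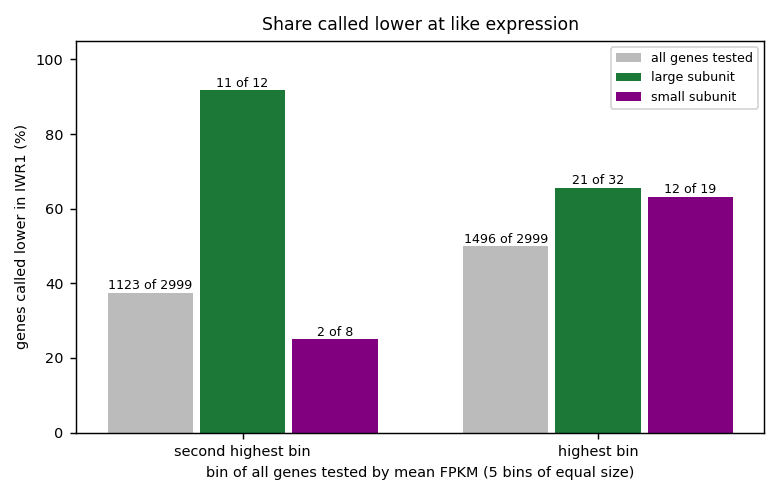
Percent of genes called lower in IWR1 in the second highest and the highest of 5 equal bins of mean FPKM, for all genes tested and for each subunit, with counts above the bars. In the highest bin the subunits stand at 65.6% and 63.2%, and in the bin below it at 11 of 12 and 2 of 8 genes.

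Grouped by the systematic names of the proteins, 20 of 30 large subunit genes with a bacterial counterpart fell and 1 rose, and 13 of 17 found only in mitochondria fell and 1 rose. In the small subunit 10 of 16 genes with a bacterial counterpart fell and 0 rose, and of the 12 classed as mitochondrial 3 fell and 3 rose, about the shares of all genes tested (25.4% and 23.3%). Those 12 include Mrps18a and Mrps18b, which are related to bacterial S18 but have mitochondrial systematic names, and Mrps30, and the difference between the classes was not tested.

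Some names do not give the place of the protein. Mrps30 and Mrps18a belong to the large subunit in the structure, and Mrps36 is now known as a subunit of the 2-oxoglutarate dehydrogenase complex. Mrps30 was at 133, 148, 179 and 156 FPKM in DMSO and 60.3, 114, 103 and 118 FPKM in IWR1, without overlap (log2 fold change -0.84, SE 0.22, edgeR adjusted p = 0.00779). Mrps36 went from 33.9 ± 4.36 FPKM to 11.96 ± 1.04 FPKM (log2 fold change -1.68, SE 0.23, edgeR adjusted p = 0.000104). Mrps18a had a log2 fold change of -0.81 (SE 0.33) that did not pass (edgeR adjusted p = 0.0591), and its libraries overlapped. Without DMSO library 4 or without IWR1 library 7 it passed, at adjusted p of 0.0315 and 0.0368. Placed by structure, 34 of 49 large and 12 of 26 small subunit genes fell, against 25.4% of all genes tested. Their medians were -1.16 and -0.63.

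Other symbols are carried by 7 further proteins of the ribosome. Of them 5 fell (71.4%, against 25.4% of all genes tested) and 1 rose (14.3%, against 23.3%), with a median log2 fold change of -0.83. Gadd45gip1, a large subunit protein, went from 82.95 ± 11.6 to 28.5 ± 5.77 FPKM (log2 fold change -1.72, SE 0.19, edgeR adjusted p = 3.30e-05). Ict1, also called Mrpl58, a peptidyl-tRNA hydrolase built into the large subunit, went from 36.4 ± 7.42 to 16.6 ± 3.76 FPKM (-1.30, SE 0.25, edgeR adjusted p = 0.00113). Dap3, the GTP-binding protein of the small subunit, rose from 9.54 ± 1.59 to 19.7 ± 2.01 FPKM (0.88, SE 0.18, edgeR adjusted p = 0.00138). The cytosolic ribosome's protein genes, by comparison, fell in 79 of 81 cases (97.5%) with 0 rising and a median of -2.19. Their promoters also held the ETS letters often, in 24 of 60 windows (40.0%, against 16.3% of all windows). Whether these letters bear on the falls was not tested.

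Of 32 factors that assemble the mitochondrial ribosome 18 fell (56.2%, against 25.4% of all genes tested) and 2 rose (6.25%, against 23.3%), with a median log2 fold change of -0.98. The same shares of all genes are the background for the lists that follow. Trub2, a pseudouridine synthase, went from 16.0 ± 1.29 to 2.33 ± 1.12 FPKM (edgeR adjusted p = 3.12e-05). Rnmtl1, also called Mrm3, which methylates the large ribosomal RNA, went from 13.4 ± 2.70 to 2.73 ± 0.914 FPKM (edgeR adjusted p = 6.23e-05). Nsun4, which methylates the small ribosomal RNA and takes part in joining the subunits, rose from 45.0 ± 10.6 to 125 ± 7.58 FPKM (edgeR adjusted p = 0.000123).

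Of 15 tested translation factors and regulators 6 fell (40.0%) and 1 rose (6.67%), with a median of -0.47. Slirp, which with Lrpprc stabilises mitochondrial messenger RNA, went from 92.8 ± 5.25 to 24.3 ± 5.28 FPKM (edgeR adjusted p = 3.22e-05). Mrrf, the ribosome recycling factor, and Taco1, an activator of cytochrome oxidase translation, had log2 fold changes of -1.02 (edgeR adjusted p = 0.000492) and -1.26 (edgeR adjusted p = 0.00626). Of 19 tested genes for charging mitochondrial transfer RNA, 8 fell (42.1%) and 3 rose (15.8%), with a median of -1.12. Mars2, Hars2 and Yars2, the enzymes for methionine, histidine and tyrosine, had log2 fold changes of -2.18, -2.26 and -2.25. Fars2, the enzyme for phenylalanine, named after its values were seen, rose by 1.75 on that scale (edgeR adjusted p = 0.000995). The summed level of the 20 listed genes was 141 to 165 FPKM in DMSO and 166 to 186 FPKM in IWR1, higher in every IWR1 library. That sum includes Fars2, at 19.8 ± 9.86 FPKM in DMSO and 77.5 ± 11.6 FPKM in IWR1. The change in Fars2 was larger than that of the whole sum.

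Of 15 genes of mitochondrial DNA replication and transcription 8 fell (53.3%, against 25.4% of all genes) and 0 rose (against 23.3%), with a median of -1.28. Polrmt, the mitochondrial RNA polymerase, was low and went from 4.31 ± 1.37 to 1.25 ± 0.567 FPKM (edgeR adjusted p = 0.00228). Tefm, its elongation factor, went from 142 ± 37.7 to 28.7 ± 11.5 FPKM (edgeR adjusted p = 8.08e-05), and Ssbp1, which coats single-stranded mitochondrial DNA, from 96.3 ± 14.9 to 33.5 ± 9.96 FPKM (edgeR adjusted p = 6.88e-05). Mterf1a, a transcription terminator, had a log2 fold change of -3.55 (edgeR adjusted p = 9.48e-06), and has a near-identical copy, Mterf1b, so its counts are uncertain. Tfam, which packs mitochondrial DNA, was at 4.87 ± 1.98 and 4.57 ± 2.25 FPKM (edgeR adjusted p = 0.610).

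Of 15 tested genes for processing mitochondrial RNA 4 fell (26.7%), about the 25.4% of all genes, and 1 rose (6.67%, against 23.3%), with a median of -0.00. Falls in this list were therefore no more frequent than in the whole table. Trmt10c, a subunit of mitochondrial RNase P, went from 162 ± 22.2 to 26.2 ± 9.58 FPKM (edgeR adjusted p = 1.64e-05), and Fastkd5 had a log2 fold change of -1.79 (edgeR adjusted p = 0.000177). Rexo2, an exonuclease that degrades short RNA, rose from 67.4 ± 22.9 to 276 ± 24.8 FPKM (edgeR adjusted p = 5.83e-05). Genes encoded by mitochondrial DNA itself were not analysed here.

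Regulators known from other cells to act on nuclear genes for mitochondrial proteins fell in 6 of 8 tested cases (against 25.4% of all genes), with 0 rising (against 23.3%) and a median of -1.44. Gabpa, the DNA-binding subunit of GABP, went from 189 ± 13.7 to 65.7 ± 19.5 FPKM (edgeR adjusted p = 5.79e-05), and its partner Gabpb1 from 104.7 ± 10.4 to 45.1 ± 12.4 FPKM (edgeR adjusted p = 0.000120). Nrf1 went from 22.3 ± 2.05 to 13.0 ± 3.94 FPKM (edgeR adjusted p = 0.00231), and the coactivator Pprc1 from 12.7 ± 1.17 to 5.11 ± 1.68 FPKM (edgeR adjusted p = 0.000327). Myc, a transcription factor that promotes ribosome production, went from 3.83 ± 1.40 to 0.936 ± 0.516 FPKM (edgeR adjusted p = 0.00383). Whether these levels bear on the ribosomal protein genes was not tested.

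The authors' ATAC-seq lists give regions that were more or less open in IWR1, without values per library. Regions higher in IWR1 lay within 1 kb of a boundary of 8 of the 76 genes (10.5%), against 7.24% of 14976 genes tested with a position, and lower ones near 0 genes, against 0.634%. The 8 were Mrpl2, Mrpl9, Mrpl13, Mrpl16, Mrpl38, Mrpl55, Mrps27 and Mrps34. Of these Mrps27 was higher in RNA, Mrpl2 and Mrpl38 were lower, and the other five were not called. Within 10 kb, 14 genes (18.4%, against 13.5%) had a higher region and 4 (5.26%, against 4.47%) a lower one, the latter being Mrpl42, Mrpl51, Mrps2 and Mrps24.

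A higher region covered the annotated start site of 4 genes with a window, Mrpl9, Mrpl16, Mrpl55 and Mrps27, which is 5.97% of 67 against 6.15% of 11922 genes. For Mrps27 it was chr13:99344238-99345238 and for Mrpl9 chr3:94442767-94443767, in mm10 coordinates, and each holds the whole window printed above. The Mrps27 window, with ETS and YY1 letters, belongs to a gene that rose 5.40-fold. The Mrpl9 window, with NRF1 letters, belongs to one at 213 ± 91.5 FPKM in DMSO and 187 ± 55.5 FPKM in IWR1 (edgeR adjusted p = 0.320). Whether the letters or the regions bear on these levels was not tested.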

How the data were processed

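RNA-seq libraries were prepared with the SMART-Seq v4 kit, which does not mark strand, from 4 collections of 10 embryos per group, per the labels' protocols. The submitters' processing notes name mm10, STAR 2.5.1b, Bowtie2 2.2.6, featureCounts 1.5.0-p1, cutadapt 1.11, Trim Galore, MACS2 and DESeq2. Counting settings and the choice of ATAC-seq regions are not given in the sources used here.

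Raw counts, not normalised per the file headers, are in the table the authors deposited. FPKM values for all 8 libraries were computed here from those counts, the deposited gene length and the total count, and differed by at most 2.58e-10 from the FPKM the authors deposited for DMSO. The authors' deposited table of log2 fold changes and adjusted p-values was used only beside the values here. At 0.05 the authors' deposited table has 46 of the 76 genes lower and 10 higher, with a median log2 fold change of -0.95. IWR1 columns are numbered 5 to 8 and the labels 1 to 4, so those columns were assigned to the group only, and 12 other per-library columns were not used here. The table held 0 entries without a gene name.

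Genes were filtered with filterByExpr and tested on counts with edgeR 4.0.16 in R 4.3.3 (quasi-likelihood, two-sided, TMM scaling, no term but treatment), and p-values were adjusted by Benjamini-Hochberg over all 14994 genes. The standard error is the size of the log2 fold change over the square root of F. The test was checked on simulated data. DESeq2 1.42.0, other scalings and filters, each library left out, and the shallow and deep libraries alone were alternatives. Total counts of 16606155 to 49672143 per library limit the precision of low genes.

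Members, lists, subunit and ancestry classes were chosen with earlier results of these data known, so no list was tested as a set. Named genes were the 5 largest falls and 3 largest rises per subunit among called genes averaging 5 FPKM or more, the 3 most abundant per subunit in DMSO, all genes called higher, genes of known place or role, and up to 3 per list by adjusted p with Myc, Nrf1, Gabpa, Tfam and Polrmt. Positions came from RefSeq GRCm38.p6, the same build as mm10, and matched all 76 genes. Promoter windows were RefSeq's, the first listed per gene. Distances to ATAC-seq regions were taken to either gene boundary. Whether deposited region coordinates count from 0 or 1 is not given. Tables and figures were made in Python 3.11.15 with pandas 2.3.3, NumPy 2.4.6, SciPy 1.17.1 and Matplotlib 3.10.9.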

Additional observations from a re-analysis of the deposited data

Results flagged for a closer look

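In 58 groups of 4 libraries, covering the named genes and the summed values, the gap between the lowest or highest library and its neighbour was compared with the range of the group by Dixon's test. Chance alone would pick out about 1 group in 20, and 4 were picked out. Mrpl30 in DMSO had a lowest library of 15.1 FPKM (library 4) against 22.8 to 24.01 FPKM in the others. Mrpl33 in IWR1 had a lowest library of 2.00 FPKM (library 7) against 8.84 to 9.94 FPKM. Mrpl39 in IWR1 had a highest library of 3.20 FPKM (library 6) against 2.14 to 2.31 FPKM. The 5 most abundant genes held 40.2% of the summed FPKM in IWR1 library 5, against 36.0 to 36.6% in the others. The cause was not tested for any of them.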

How the results depend on the processing

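Of the 47 falls, 28 were called in each of the 16 other fits that tested them, and of the 5 rises 4, all but Mrps23. None of these 52 genes changed sign. The count of rises was 10 with DESeq2 (4114 of all 14994 genes), 10 with its size factors (3677) and 11 with library totals alone (4052). It was 11 among genes of at least 5 FPKM (2469 of all 7079), and 1 without overlapping genes. In the main fit 3494 of all 14994 genes rose. The median log2 fold change of large subunit genes was -1.08 with library totals, -1.08 from 5 FPKM, -0.94 in the shallow libraries and -1.44 without overlapping genes. In the shallow libraries 30 genes fell (2088 of all 15067 genes), 20 large and 10 small, and the small subunit median was -0.82. Summed counts had a log2 ratio of -0.44, or -0.63 with TMM library sizes and -0.67 without Mrpl48. Regions lay near 8 genes within 1 kb, near 18 within 10 kb with Mrps2 counted for a higher and a lower region, and over 4 start sites. Apart from the choice of genes or distance itself, the cause was not tested. Leaving out 1 library gave 45 to 49 falls (31 to 32 large, 13 to 17 small) and 5 to 7 rises. Over all 15097 to 15756 genes tested in those fits, 3438 to 3676 fell and 2940 to 3450 rose. Medians there were -1.31 to -1.13 (large) and -0.78 to -0.65 (small), and log2 ratios of summed counts were -0.48 to -0.40. In the shallow libraries Mrpl40, Mrpl44, Mrpl45, Mrps18b and Mrps30 kept their direction at adjusted p of 0.0534 to 0.0882 (edgeR). Among listed genes Dap3, Mrrf, Myc and Polrmt in the shallow and Ict1, Taco1, Nrf1 and Yars2 in the deep libraries kept direction without passing, at adjusted p of 0.0520 to 0.0876. The rises of the markers Prm1, Tnp1, Cd68, Gata3 and Tnfaip6 each failed in 1 or more fits. Tfam had a log2 fold change of 0.65 in the deep libraries alone. The sums without Mrpl48 or within depth tiers, and regions over start sites, were chosen after seeing the data. No paired analysis was possible because the IWR1 columns are numbered 5 to 8 and share no number with DMSO. Low counts limit genes such as Mrps5, and with 4 libraries per group a gene not called is not shown to be equal.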
